A study of Mus musculus with 8 samples.

Results

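The gene of spermine oxidase, Smox, and its neighbours in polyamine metabolism were followed in mouse calf muscle after ursolic acid feeding. The genes considered were Smox, Paox, Sat1, Odc1, Amd1, Srm, Sms, Azin1, Azin2 and Oaz1, taken as rows of the chip that carry the gene as their only symbol. Of these 10 genes, 6 had such a row among the 16755 rows measured: Smox, Srm, Sms, Azin1, Azin2 and Oaz1, each with 1 row. Paox, Sat1, Odc1 and Amd1 were not analysed here. The list was selected on the log2 values of these same arrays: Smox was chosen by its difference between the groups, which put it among the genes with the smallest p. That difference is therefore given as a description, with no test.

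Gastrocnemius muscle came from male C57BL/6 mice 12 weeks old that ate plain chow, or the same chow with 0.27% ursolic acid, for 5 weeks. Ursolic acid is a triterpenoid of apple peel and other plant waxes, and the study asked how eating it alters muscle mRNA levels. Each group held 4 samples, and each sample was RNA pooled from 2 mice, so the spread between samples is a spread between pools and may in part be technical. Values are log2 expression levels from 1-colour arrays, in which a difference of 1 means a doubling. The free-text description contradicts the title and the treatment field for control samples 2 and 4 and for ursolic acid samples 1 and 3, and groups follow the titles. Control sample 1 stood slightly apart, with a mean Spearman correlation of 0.977 with the other arrays against 0.983 to 0.986 for the rest. Genes of the muscle fibre were bright on every array: the 10 measured markers had mean log2 values of 10.03 (Mb) to 12.49 (Tnnt3) in the controls.

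Polyamines are small, positively charged molecules that bind nucleic acids and are needed for translation and growth. Ornithine decarboxylase (Odc1) makes putrescine, spermidine synthase (Srm) turns it into spermidine, and spermine synthase (Sms) turns spermidine into spermine. Amd1 makes the decarboxylated S-adenosylmethionine that both synthases use. Spermine oxidase (Smox) returns spermine to spermidine by oxidation, with release of hydrogen peroxide, and Sat1 with Paox offers a second way back through acetylated polyamines. Antizyme (Oaz1) sends ornithine decarboxylase to the proteasome, and the antizyme inhibitors Azin1 and Azin2, relatives of the decarboxylase that lack its activity, hold antizyme off. In mouse muscle, Smox mRNA is known to be low in atrophy, and p21, the product of Cdkn1a, is known to repress it.

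The start regions of Smox and of Sms, whose enzyme makes the spermine that spermine oxidase consumes, are shown because Sms makes spermine and Smox consumes it. RefSeq promoter windows of assembly GRCm38.p6, from 250 bases before to 50 after a start site, were found for 3 of the 6 measured genes (Smox, Sms and Oaz1). Capitals mark the GC box (GGGCGG) and the E-box (CACGTG), searched on both strands with overlaps allowed. The sequences read 5′ to 3′ on the strand of the gene. The first is Smox on the plus strand at chr2:131491612-131491911. The others are the windows of both Sms start sites on the minus strand, at chrX:157492238-157492537 and chrX:157491319-157491618.
Smox: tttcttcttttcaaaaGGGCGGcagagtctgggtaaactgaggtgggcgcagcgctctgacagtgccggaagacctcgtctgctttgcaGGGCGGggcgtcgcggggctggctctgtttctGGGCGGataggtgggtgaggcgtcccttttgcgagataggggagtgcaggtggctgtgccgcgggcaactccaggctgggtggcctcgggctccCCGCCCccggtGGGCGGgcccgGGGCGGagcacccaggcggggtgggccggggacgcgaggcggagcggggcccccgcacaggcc
Sms, first start: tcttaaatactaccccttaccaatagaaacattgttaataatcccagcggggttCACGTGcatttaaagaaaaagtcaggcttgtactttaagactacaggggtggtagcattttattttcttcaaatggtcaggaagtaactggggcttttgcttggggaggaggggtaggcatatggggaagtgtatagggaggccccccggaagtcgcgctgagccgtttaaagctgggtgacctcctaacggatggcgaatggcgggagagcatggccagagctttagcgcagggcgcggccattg
Sms, second start: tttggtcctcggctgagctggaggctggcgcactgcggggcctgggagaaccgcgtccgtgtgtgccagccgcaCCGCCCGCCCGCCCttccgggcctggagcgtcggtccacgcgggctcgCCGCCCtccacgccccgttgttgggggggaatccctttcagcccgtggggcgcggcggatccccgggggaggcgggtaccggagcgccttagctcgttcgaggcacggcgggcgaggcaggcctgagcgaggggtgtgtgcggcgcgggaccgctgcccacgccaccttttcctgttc
The Smox window was 71.0% G and C, more than 91.8% of the 32851 windows in the table, whose median was 52.7%. It held 6 GC boxes and no E-box. The first Sms window was 50.3% G and C, and the second was 74.3%, more than 95.6% of the windows. The second Sms window held 4 GC boxes, some overlapping, and the first held none but had 1 E-box. Over all windows, 35.7% held a GC box and 7.15% an E-box. These matches describe letters and not binding.

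Smox had higher values with ursolic acid, while the log2 differences of the 5 other measured genes of the pathway lay between −0.12 and 0.18. The log2 values of Smox (row 6881267) in control samples 1 to 4 were 9.31, 9.08, 9.12 and 9.32. In ursolic acid samples 1 to 4 they were 10.27, 9.77, 9.83 and 10.19. Every ursolic acid sample was above every control sample, with a gap of 0.44 between the highest control and the lowest ursolic acid value. The group means were 9.21 ± 0.13 (SD, n = 4) and 10.01 ± 0.25 (SD, n = 4). The log2 difference was 0.81 ± 0.12 (SE, limma), with a 95% interval of 0.53 to 1.08. This is 1.75-fold, with an interval of 1.45-fold to 2.11-fold. The interval takes no account of the choice of Smox by this same difference. Only 11 of the 16755 rows had a larger log2 difference in either direction.

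With each sample left out in turn, the Smox difference ran from 0.72 to 0.89. Within the samples described as untreated it was 0.84, and within those described as treated it was 0.78. In the 4 samples whose title and description agree it was 0.76. These are the values that chose Smox, and the groups do not overlap, so no such subset could reverse the direction. The Smox spread differed between the groups, with a range of 0.51 in ursolic acid against 0.25 in control. In both groups samples 1 and 4 were the higher ones and samples 2 and 3 the lower ones, though the sample numbers carry no known pairing.

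**Figure D1:**
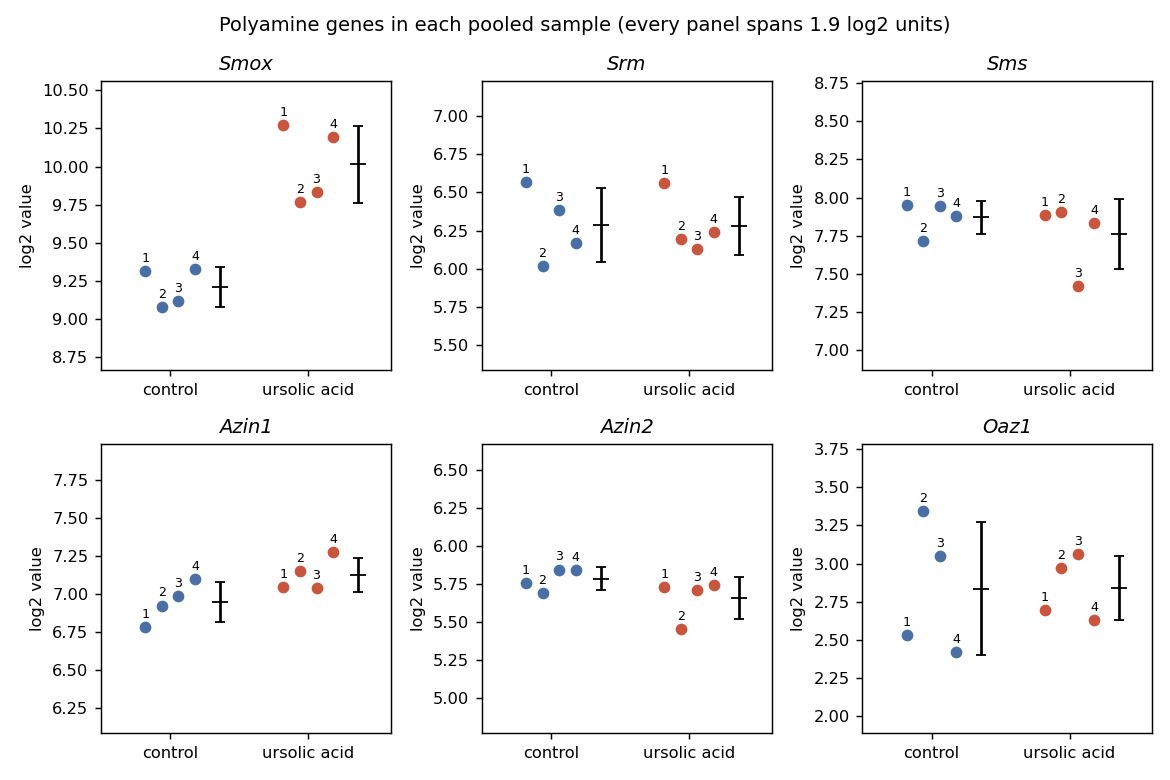
Log2 values (vertical axes) of the 6 measured polyamine genes in the 4 control (blue) and 4 ursolic acid (red) samples, with sample numbers beside the points. Black marks give the group mean and its SD, and every panel spans the same number of log2 units. Only for Smox do the groups separate, at 9.08 to 9.32 against 9.77 to 10.27.

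The synthases that lead to spermine showed no such gap. Srm (row 6918720), which makes spermidine, had control values of 6.57, 6.01, 6.39 and 6.17 in samples 1 to 4. Its ursolic acid values were 6.56, 6.20, 6.13 and 6.24, all within the control range. The log2 difference was 0.00 ± 0.13 (SE), with a 95% interval of −0.30 to 0.29. That interval corresponds to 0.813-fold to 1.22-fold, so smaller changes were not detectable with 4 pools a group.

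Sms (row 7020410), which makes spermine, had control values of 7.95, 7.71, 7.94 and 7.88. Its ursolic acid values were 7.89, 7.91, 7.42 and 7.83. Ursolic acid sample 3 was below every control, and the other three lay within the control range. The log2 difference was −0.11 ± 0.11 (SE), with an interval of −0.36 to 0.14, and without ursolic acid sample 3 it was 0.01. RefSeq lists a pseudogene of Sms, and whether the row also reads it was not tested.

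The regulators of ornithine decarboxylase also overlapped between the groups. Azin1 (row 6835104), which frees the decarboxylase from antizyme, had control values of 6.79, 6.92, 6.99 and 7.10 against 7.05, 7.15, 7.04 and 7.27 with ursolic acid. Ursolic acid samples 2 and 4 were above every control, and samples 1 and 3 lay just under the highest control. The log2 difference was 0.18 ± 0.09 (SE), with an interval of −0.01 to 0.37, the next in size after Smox among the 6 genes.

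Azin2 (row 6925533), the relative of Azin1, had control values of 5.76, 5.69, 5.85 and 5.85. With ursolic acid the values were 5.73, 5.46, 5.71 and 5.74. Sample 2 alone lay below the controls. The difference was −0.12 ± 0.08 (SE), with an interval of −0.31 to 0.06, and it was −0.06 without ursolic acid sample 2.

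Oaz1 (row 6769247), the antizyme gene, had control values of 2.53, 3.34, 3.05 and 2.42 against 2.69, 2.97, 3.06 and 2.63 with ursolic acid. All ursolic acid values lay inside the control range. The difference was 0.00 ± 0.20 (SE), with an interval of −0.43 to 0.44. Its mean signal was near the bottom of the chip, in the lowest 1.35% of rows, and its residual SD of 0.34 was larger than that of 96.7% of rows, so the row limits what can be read about antizyme. RefSeq also lists a transcribed pseudogene of Oaz1, and whether the row reads it was not tested.

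By limma with Benjamini-Hochberg adjustment over all rows, 0 of the 6 genes passed an adjusted p of 0.05, and 0% of the 16755 rows did. At an unadjusted p of 0.05, 1 of the 6 passed, Smox itself, where 7.07% of all rows did. The groups did not overlap in 1 of the 6, again Smox, against 4.49% of rows (2.66% higher and 1.83% lower with ursolic acid). Smox entered the list by this very contrast, so nothing is read from these counts. The 5 other genes had a median log2 difference of 0.00 and a range of −0.12 to 0.18, and the median over all rows was −0.01.

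Around these genes, 44 others were listed by role, and 33 had a row of their own. By limma, 0 of the 33 passed an adjusted p of 0.05 over all rows. Before adjustment, 2 had higher and 1 had lower values at p of 0.05, or 9.09% of them, beside 7.07% of all rows (4.08% higher and 3% lower). Their median log2 difference was 0.02.

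**Figure D2:**
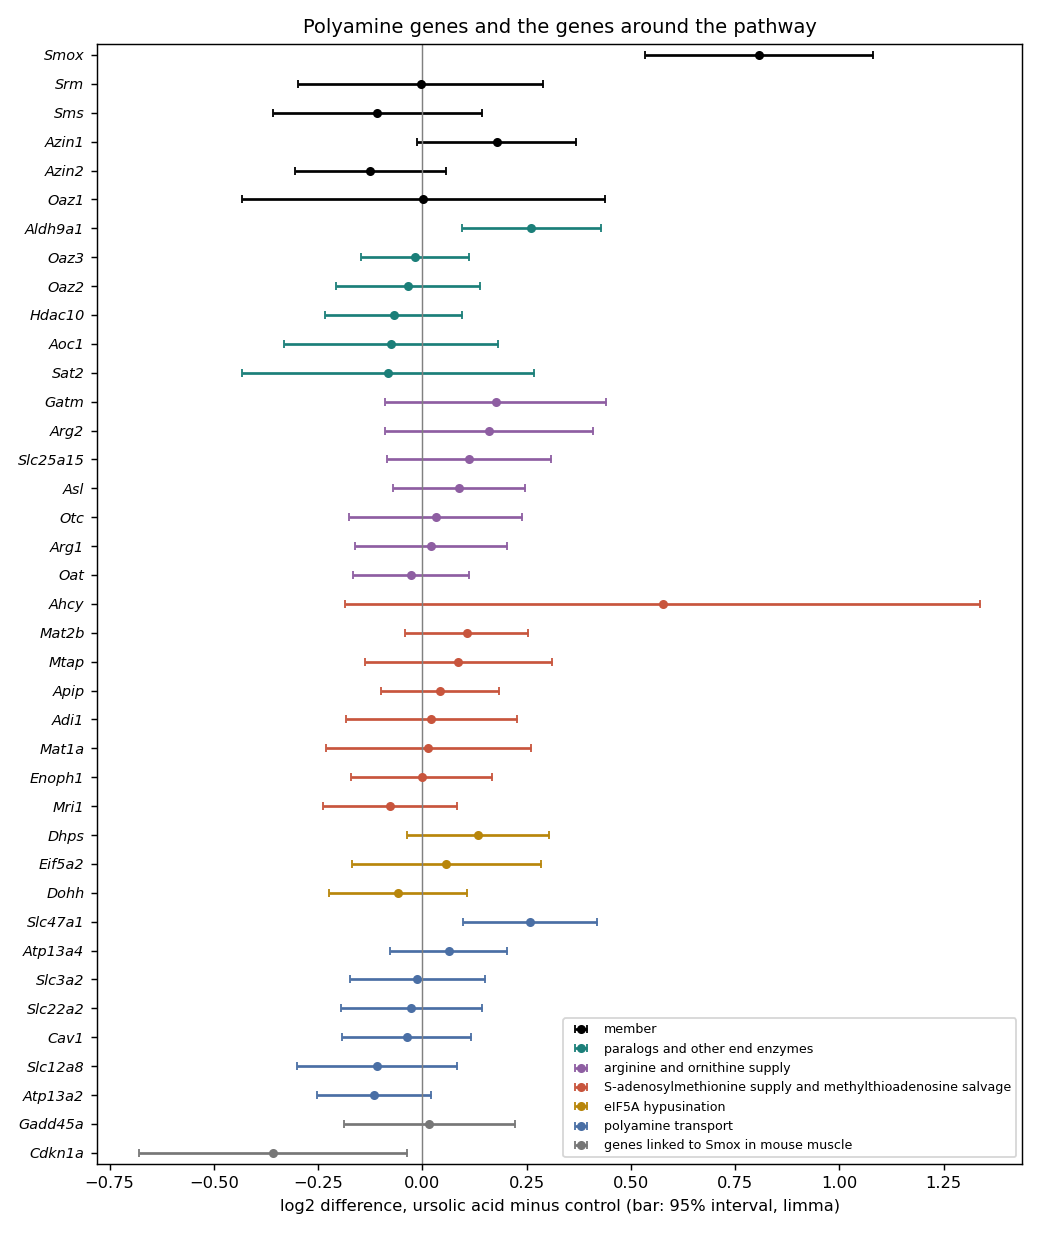
Log2 difference between ursolic acid and control (horizontal axis) with its 95% limma interval, for the 6 measured polyamine genes (black) and 33 genes around the pathway (colours by role). Smox, which was chosen by this difference, stands at 0.81, and the 5 other polyamine genes lie between −0.12 and 0.18.

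Among paralogs of the listed genes (the antizymes Oaz2 and Oaz3, and Sat2) and other enzymes of polyamine breakdown (Aoc1, Hdac10 and Aldh9a1), 6 were measured: 1 was higher at an unadjusted p of 0.05, none was lower, and none passed the adjusted threshold. Aldh9a1, an aldehyde dehydrogenase that oxidises aminobutyraldehyde from putrescine, had log2 values of 5.67, 5.84, 5.85 and 5.85 in control and 6.20, 5.97, 6.06 and 6.02 with ursolic acid. The groups did not overlap, with a difference of 0.26 ± 0.07 (SE; limma adjusted p = 0.408). Hdac10, a deacetylase of acetylated polyamines, differed by −0.07 ± 0.07. Aoc1, a diamine oxidase, differed by −0.07 ± 0.11.

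Of the transporters, 7 were measured and 0 passed over all rows. Slc47a1, an exporter of organic cations, had values of 6.41, 6.52, 6.33 and 6.46 in control against 6.60, 6.64, 6.69 and 6.81 with ursolic acid. The groups did not overlap, and the difference was 0.26 ± 0.07 (SE; limma adjusted p = 0.394). Atp13a2, a lysosomal exporter of spermine and spermidine, lay lower in every ursolic acid sample than in any control, at 5.83 ± 0.02 (SD, n = 4) against 5.95 ± 0.07 (SD, n = 4). Its difference was small, −0.12 ± 0.06 (SE; limma adjusted p = 0.757). Slc12a8 differed by −0.11 ± 0.09.

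In the supply of arginine and ornithine, the precursors of putrescine, 6 of 7 measured genes were higher by small amounts, and none passed at an adjusted or an unadjusted p of 0.05. Gatm, which uses arginine to start creatine synthesis, differed by 0.18 ± 0.12 (SE). Arg2, the mitochondrial arginase that makes ornithine, differed by 0.16 ± 0.11, and Slc25a15, the mitochondrial ornithine carrier, by 0.11 ± 0.09. The limma adjusted p of the 7 genes ran from 0.819 to 0.978. With the sample number as a block, the unadjusted limma p of Arg2 was 0.0314 (limma adjusted p = 0.526).

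Genes that supply S-adenosylmethionine or salvage the methylthioadenosine left by the synthases did not pass either, with 0 of 8 at an adjusted or an unadjusted p of 0.05. Ahcy, which clears S-adenosylhomocysteine, had the largest difference of the 33, 0.58, with a wide SE of 0.34. Its values were 5.17, 6.21, 5.57 and 6.67 in control samples 1 to 4 and 5.85, 6.78, 6.20 and 7.09 with ursolic acid. The groups overlapped, and in both of them samples 2 and 4, described as treated, were above samples 1 and 3. Among the samples of either description class alone, both ursolic acid values were above both controls. With the description class as a covariate the difference was 0.58 ± 0.14 (SE; limma adjusted p = 0.308, unadjusted p = 0.00325), against a limma adjusted p of 0.797 without it. Mat2b, the regulatory subunit of S-adenosylmethionine synthetase, differed by 0.11 ± 0.07, and Mri1, an enzyme of the salvage route, by −0.08 ± 0.07.

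Spermidine also donates the hypusine residue of the translation factor eIF5A. Dhps, which carries out the first step of that modification, differed by 0.13 ± 0.08 (SE). Dohh, which completes it, differed by −0.06 ± 0.07, and Eif5a2, a paralog of the factor, by 0.06 ± 0.10. None of these 3 passed at either threshold.

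Of the genes linked to Smox in mouse muscle, Cdkn1a had a lower mean with ursolic acid. Its values were 6.55, 6.52, 5.94 and 6.17 in control and 6.01, 5.67, 6.08 and 5.98 with ursolic acid. Control sample 3 lay among the ursolic acid samples, so the groups overlapped. The difference was −0.36 ± 0.14 (SE; limma adjusted p = 0.658, unadjusted p = 0.0321). The unadjusted limma p was 0.0602 with the sample number as a block and 0.0425 with the description class as a covariate. A link between the Cdkn1a and Smox differences was not tested. Gadd45a, an inducer of Cdkn1a in atrophying mouse muscle, differed by 0.02 ± 0.09.

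Variation among samples of the same group offers a view of Smox that does not use the difference between the groups. Each value was set against the mean of its group, and Pearson's r was taken over the 8 deviations as a description. All 8 arrays share their preparation and normalization. The deviations of Smox ran with those of Azin2 (r = 0.65), Srm (r = 0.59) and Sms (r = 0.43), and hardly with those of Azin1 (r = 0.11). They ran against those of Oaz1 (r = −0.76). Without the 2 arrays with the largest Smox deviations the values were 0.33 for Azin2, 0.42 for Srm, 0.76 for Sms, 0.44 for Azin1 and −0.88 for Oaz1. The Oaz1 row carries the low signal described above.

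**Figure D3:**
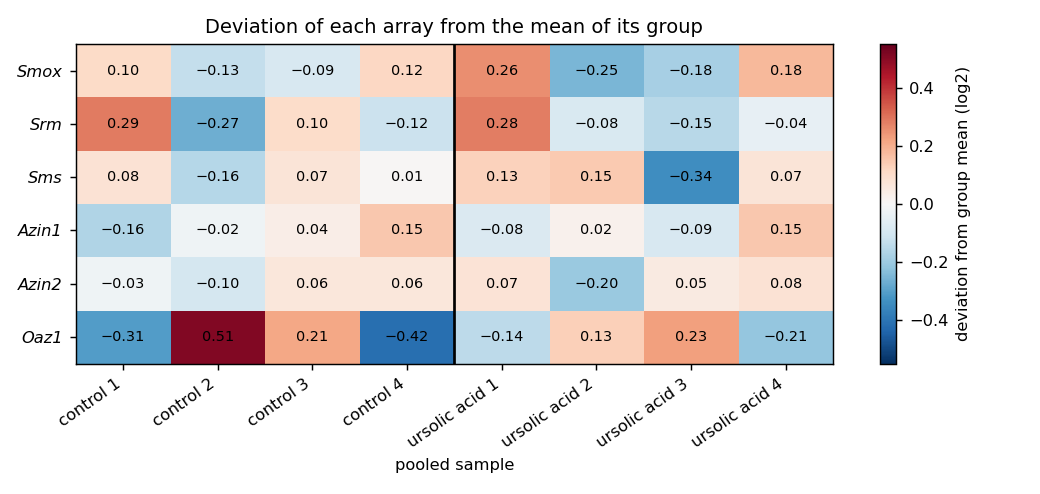
Deviation of each array from the mean of its own group, in log2 units, for the 6 measured genes (rows) in the 8 samples (columns, controls left of the line). Red is above and blue below the group mean. Smox and Oaz1 have opposite signs in all 8 arrays, but the mean signal of the Oaz1 row is in the lowest 1.35% of rows.

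Genes whose deviations were most like those of Smox were ranked. Among 7490 genes at or above the median level, the closest were Pygm, the muscle glycogen phosphorylase (r = 0.98), and Myom2, a protein of the sarcomere M-band (r = 0.97). Next came Rcn3 and Brd9 (r = 0.96 each) and Mapk12, the p38 gamma kinase abundant in muscle (r = 0.96). The group differences of these 5 genes lay between −0.05 and 0.15. In 33 of the 7490 genes, or 0.441%, r was over 0.9. The 5 named are the highest of 7490 values of r, each over 8 deviations, and the share expected by chance was not tested.

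Over the 8 values as they stand, which include the group difference, the closest genes were Trip10 (r = 0.99), Trim24, Gpx1, Csf1r and Hipk2 (r = 0.98 each). Gpx1 is a glutathione peroxidase that removes hydrogen peroxide, and Csf1r is the receptor of macrophage colony-stimulating factor. Their log2 differences between the groups were 0.23 for Trip10, 0.38 for Trim24, 0.36 for Gpx1, 0.31 for Csf1r and 0.38 for Hipk2. This likeness rests in part on the same contrast that chose Smox, and genes higher with ursolic acid are favoured by it. These genes also ran with Smox within the groups. With the group means removed, r was 0.96 for Trip10, 0.94 for Csf1r, 0.90 for Trim24 and for Gpx1, and 0.89 for Hipk2.

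Markers of other cells were not level between the groups. Of 20 macrophage markers listed, 19 were measured and 18 were higher with ursolic acid, where 45.5% of all rows were. Of the 19, 13 were higher at an unadjusted p of 0.05, beside 4.08% of all rows, and 0 passed the limma adjusted threshold. Their median difference was 0.31. Their summed linear level was 1128 to 1327 in the controls and 1486 to 1779 with ursolic acid, without overlap. The lowest mean log2 value among these markers was 4.88, below the median level of 5.58 over all rows. In such pooled tissue, more or fewer cells of a type and more or less RNA per cell cannot be told apart. All 7 measured fibroblast markers were higher by 0.05 to 0.61 (Lum), with a median of 0.13. Of these, 2 passed an unadjusted p of 0.05 and 0 the limma adjusted threshold. Their summed levels overlapped, at 3319 to 3743 against 3573 to 4350. Muscle fibre markers had a median difference of 0.00, with summed levels of 34180 to 35020 against 32910 to 35890. Of the other cells, 1 of 6 endothelial markers and 3 of 6 adipocyte markers were higher, and the summed levels overlapped for both.

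Within the groups, the deviations of Smox ran most closely with the mean deviation of the 10 muscle fibre markers (r = 0.945, and 0.915 without the 2 arrays farthest in Smox). For the 19 macrophage markers r was 0.43 (0.44 without those 2 arrays) and for the 7 fibroblast markers 0.707 (0.715). For the endothelial markers r was 0.26 (0.52) and for the adipocyte markers 0.20 (0.68), so some of these values hang on few arrays. Pygm is itself 1 of the 10 muscle fibre markers, and Csf1r, with r = 0.94 within the groups, is 1 of the 19 macrophage markers. The mean deviation of the fibre markers ran from −0.06 to 0.05, and that of Smox from −0.25 to 0.26. The macrophage score was highest in ursolic acid samples 4 (0.24) and 3 (0.23), and Smox in samples 1 and 4. The part of these markers in the Smox difference was not tested.

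**Figure D4:**
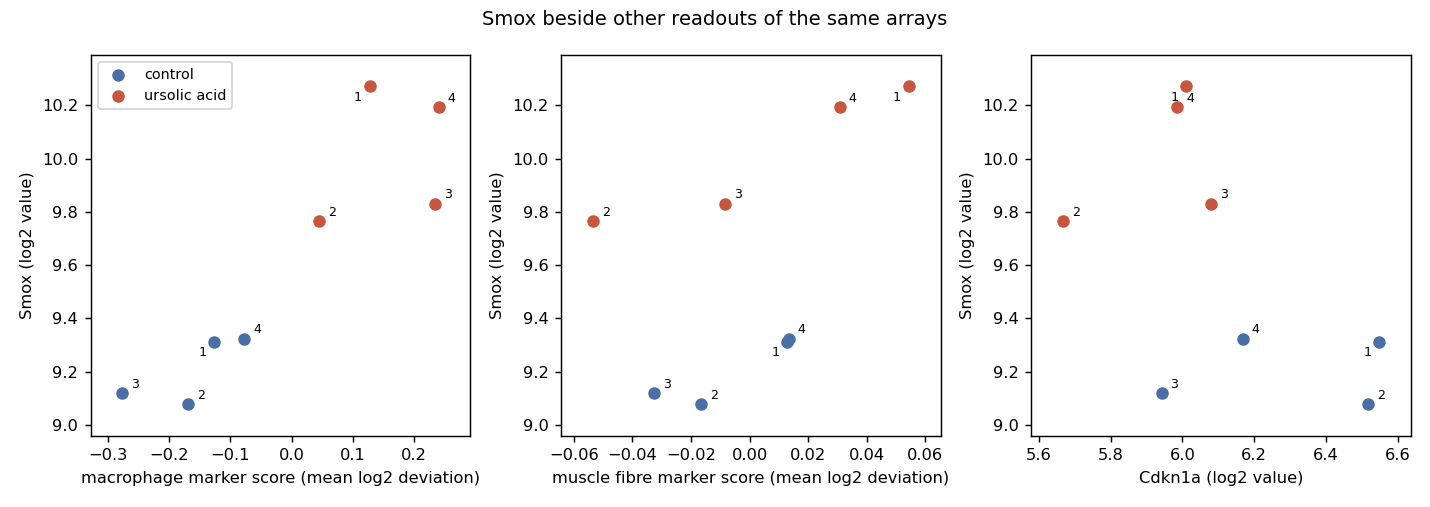
Smox log2 value (vertical axes) in the 4 control (blue) and 4 ursolic acid (red) samples against the macrophage marker score, the muscle fibre marker score (each the mean log2 deviation of the listed genes from their means over all arrays) and the Cdkn1a log2 value. The macrophage score separates the groups as Smox does, at −0.28 to −0.08 against 0.05 to 0.24, while the fibre score and Cdkn1a overlap.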

How the data were processed

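Gastrocnemius RNA from 4 control and 4 ursolic acid pools was measured on 1-colour arrays. The authors made the deposited log2 values with RMA, which subtracts background, normalizes between arrays and combines probes, naming mm9 as genome build, per the submitters' processing notes. Software version and row filters are not stated there. Base 2 was inferred from the range of the values. Of the 16755 rows, 14996 carried 1 gene symbol, 1019 several and 740 none, and 14941 of the first matched RefSeq by gene number. No gene listed here had more than 1 such row.

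All rows were fitted together with limma 3.58.1 in R 4.3.3 (lmFit, eBayes), two-sided, without covariate, with Benjamini-Hochberg adjustment over all rows. The fit was tested on simulated data. The members, lists and alternatives were chosen with earlier results of these data known. All members were named, with the 3 genes of smallest p in each list around the pathway and the 5 genes most like Smox by each of 2 measures. The fibre markers Mb and Tnnt3 were named after their values were seen. Arrays have no depth, and 4 a group limit the precision.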

Additional observations from a re-analysis of the deposited data

Results flagged for a closer look

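Within each group of 4 samples, 78 sets of values (genes, marker scores and array measures) were searched for a sample lying far from the other three. There were 4 such sets, and chance gives about 1 in 20, or 3.9. Each is given with its gap to the next sample as a share of the whole range. Sms in ursolic acid sample 3, at 7.42 against 7.83 for the next sample, had 0.847. Azin2 in ursolic acid sample 2, at 5.46 against 5.71, had 0.884. Aldh9a1 in control sample 1, at 5.67 against 5.84, had 0.96. The mean correlation of control sample 1 with the other arrays, 0.977 against 0.985 for the next control, had 0.921.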

How the results depend on the processing

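The Smox difference was 0.72 to 0.89 in every alternative run except grouping by the free-text description. That grouping mixes both titled groups and gave −0.0432 (treated minus untreated). The lowest and highest of the range came from leaving out ursolic acid sample 1 and ursolic acid sample 2. Since the titled groups do not overlap in Smox, leaving samples out could not reverse its direction. No row passed an adjusted p of 0.05 in the limma fit reported, while 27 did among rows at or above the median level, 12 under robust moderation with a variance trend, 23 with array weights, 1 without moderation and 20 (0.119%) at an adjusted p of 0.10. These are 0.322%, 0.0716%, 0.137% and 0.00597% of the rows tested for the first 4. Smox, which this contrast chose, was the polyamine gene called in these settings, except without moderation, where 0 were, and nothing is read from it. With any sample left out, 0 rows, 0 members and 0 of the 33 genes around the pathway were called. The median difference of the 5 genes other than Smox ran from −0.105 to 0.0296 with a sample left out. It was −0.0761 in samples with agreeing labels, −0.0819 in those described as untreated and 0.0752 in those described as treated. Single genes varied more. With agreeing labels Srm was at −0.261, Sms at −0.0761, Azin1 at 0.326, Azin2 at −0.204 and Oaz1 at 0.00836. Sms was at −0.292 in samples described as untreated and at 0.0752 in those described as treated. Genes around the pathway past an unadjusted p of 0.05 numbered 2 to 4 over all alternatives, with 4 both under the replicate block and with the description as a covariate, Ahcy among them (unadjusted p = 0.000107 and 0.00325, limma adjusted p = 0.139 and 0.308). The replicate block and the description covariate are balanced over the groups, so they could not change any difference, only its SE. With the replicate number as a block, 0 rows were called and 2 members passed an unadjusted p of 0.05, where 1 was reported. There were also 2 without control sample 4, with the description as a covariate and in samples with agreeing labels. The share of all rows past an unadjusted p of 0.05 was not taken in the alternatives. Nothing is therefore read from these counts of members and of genes around the pathway. Deviations of same-numbered arrays correlated at 0.018 to 0.186, and the numbers were not taken as pairs. Differently numbered arrays were not compared in this way, so whether the numbers mark a shared batch was not tested. Signal over background is not given, so the limit for dim rows such as Oaz1 is unknown.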
